A study of Homo sapiens with 4 samples.

Results

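IGF2BP3 is an RNA-binding protein that is known as a reader of N6-methyladenosine (m6A) and as a stabilizer of the mRNAs it binds. The mRNAs described here are those of 33 genes of the autophagy machinery, taken by name from 20033 protein-coding genes of GENCODE release 44, and all 33 names matched 1 gene each. Their IGF2BP3 binding was read from RNA immunoprecipitation sequencing (RIP-seq), in which RNA recovered with an anti-IGF2BP3 antibody is compared with input RNA from the lysate, in OE-19, an established line of adenocarcinoma of the esophagogastric junction. The series has 4 samples, which are 2 IGF2BP3 RIP replicates and 2 inputs, with no treatment, genotype or time course named. Whether these cells were fixed by UV light is uncertain. The methods of the study describe UV crosslinking for another binding assay, LACE-seq, and name none for RIP. They also name no fragmentation of the RNA before the RIP. A summit may therefore lie away from the place where the protein was bound, and positions given here describe the signal. Peak lists of the RIP replicates were used and the inputs were not analysed here, so each value is the relation of RIP to background as the peak caller of the authors had set it. A peak was counted for a member when its summit, the position of highest signal, lay in an exon of that gene. By this rule 184 of 44622 peaks in replicate 1 and 177 of 42723 in replicate 2 belonged to the members.

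Autophagy encloses cytoplasm in a double membrane that fuses with the lysosome. The ULK kinase complex starts the process, and the class III PI3-kinase complex marks the growing membrane with the lipid PI3P. ATG9A, VMP1 and TMEM41B take part in the lipid supply of this membrane. PI3P-binding WIPI proteins recruit the conjugation enzymes, which attach proteins of the ATG8 family to the membrane. Cargo receptors then tie ubiquitinated proteins or damaged organelles to ATG8 proteins, and a tether joins the closed autophagosome to the lysosome.

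As to the lists as a whole, the labelled epithelial origin could not be checked by expression, since a called peak is not a level of mRNA. Of 6 epithelial or OE-19 markers, CDH1 held 4 and 8 exonic peaks in replicates 1 and 2, and KRT8, KRT18, KRT19, EPCAM and ERBB2 held none. Of 3 fibroblast genes, COL1A1 and COL3A1 held 0 peaks in replicate 1 and 5 each in replicate 2, and COL1A2 held none, as did the leukocyte genes PTPRC and CD3E. Whether this difference between the replicates bears on the members was not tested. The labels do not say whether the replicates were separate cultures, so an SD over 2 values covers only the spread between these lists. Read depth is unknown, and the lack of a called peak does not measure the lack of binding. Members were described without any test, beside the same quantities over all genes or all exonic peaks.

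Of the 33 members, 18 held an exonic peak in both replicates, whereas 28% of all protein-coding genes did. No peak in either list was found for 7 members, compared with 63.8% of all protein-coding genes. Peaks in 1 replicate alone were found for 8 members, and the share of all protein-coding genes with such peaks is not given. The members have long coding sequences (CDS) in part. Among those with a CDS of at least 2000 nt, 10 of 12 held peaks in both replicates against 48% of all mRNAs of that length. Among those with a shorter CDS, 8 of 21 did against 20.8%. No comparison with all genes was matched for mRNA level, which the lists do not give, so these shares do not show preferred binding. The number of exonic peaks was 180.5 ± 4.95 per list (SD, n = 2). It fell to 18.5 peaks per list when a q of at most 0.05 was required, where q is the p-value of the caller corrected for multiple testing. At that limit 2 members, WDFY3 and ATG4A, had such a peak in both replicates (all protein-coding genes, 4.93%), and 7 members had one in either (all protein-coding genes, 10.3%). The other 5 were RB1CC1, ATG13, AMBRA1, ATG9A and WIPI1.

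**Figure D1:**
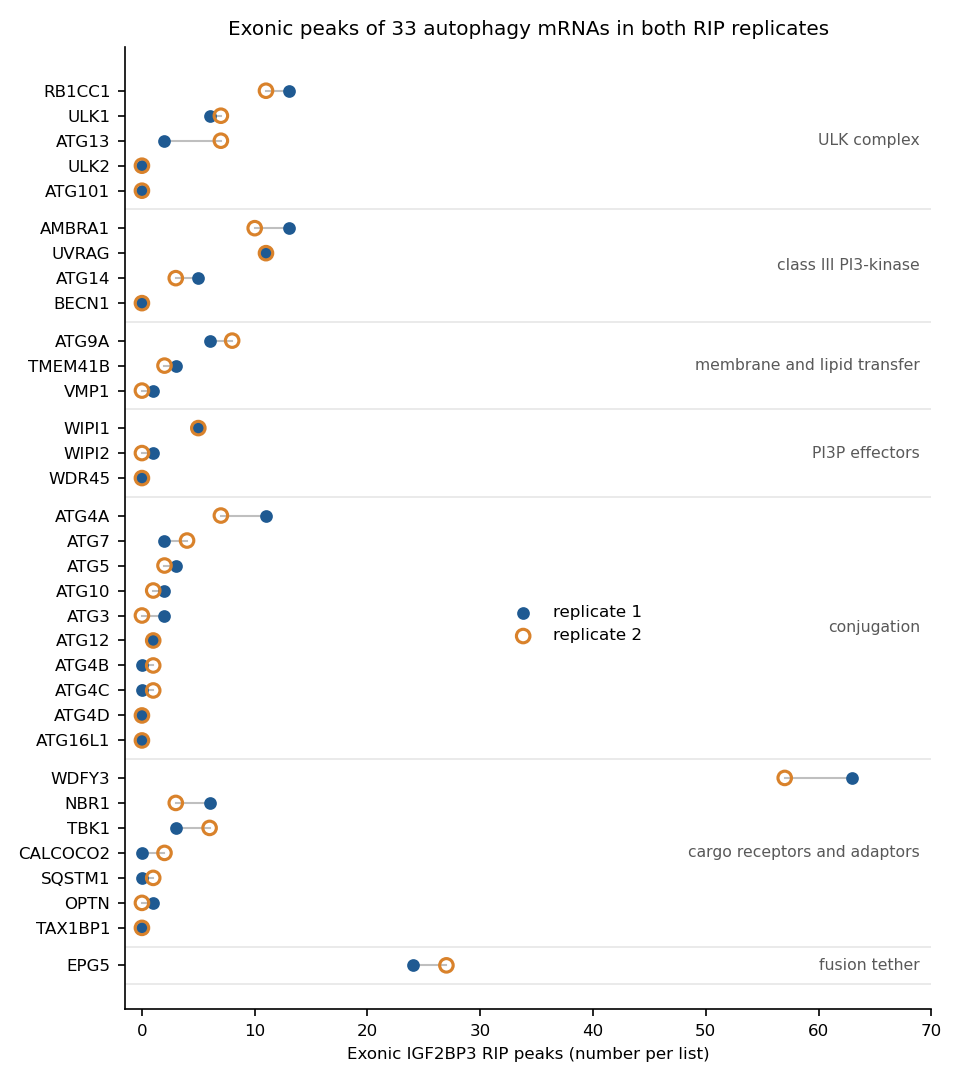
Number of exonic IGF2BP3 RIP peaks (x axis) of each of the 33 members (y axis, grouped by role), with filled points for replicate 1 and open circles for replicate 2. WDFY3 stands at 63 and 57 peaks and EPG5 at 24 and 27, and the remaining 31 members lie between 0 and 13.

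The peaks were concentrated in a few long mRNAs. WDFY3 held 34.2% of the member peaks in replicate 1 and 32.2% in replicate 2, on 14.5% of the coding length of the members. With EPG5 these shares came to 47.3% and 47.5%, on 25.2% of the coding length. The other 31 members held 97 and 93 peaks. Across the members, the number of peaks in replicate 1 followed that in replicate 2 (Pearson's r = 0.985, Spearman's rho = 0.856 over 33 genes), also without WDFY3 and EPG5 (r = 0.888, rho = 0.825 over 31 genes). The mean number of peaks followed the CDS length less closely outside WDFY3 and EPG5 (r = 0.629, rho = 0.341) and hardly the length of the 3′ UTR (r = -0.0505, rho = 0.155). Genes are not independent replicates, and the lists of both replicates share the annotation and the caller, so these correlations only describe the lists.

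WDFY3 encodes ALFY, a very large PI3P-binding scaffold with a BEACH domain that brings protein aggregates to the autophagic membrane. The gene (ENSG00000163625.17, chr4:84668765-84966690, minus strand) has a canonical mRNA of 14559 nt with a CDS of 10581 nt in 68 exons. Replicate 1 held 63 exonic peaks and replicate 2 held 57. Of these, 58 and 51 summits lay in the CDS, 3 and 2 in the 5′ UTR, and 2 and 4 in the 3′ UTR of 3271 nt. Summits were therefore spread along the whole CDS and were sparse past the stop codon. Each exon hit before the last held 1 summit per replicate whatever its length, and the last exon, of 3395 nt, held 3 and 4. Summit counts are thus tied to the number of exons and do not measure the amount of binding per region. In 3 equal parts of the CDS there were 17, 19 and 22 summits in replicate 1 and 13, 18 and 20 in replicate 2. A summit lay in 61 of the 68 exons in replicate 1, in 54 in replicate 2 and in 50 in both. The 50 exons hit in both had a median length of 173.5 nt, the 15 hit in 1 replicate 101 nt, and the 3 hit in neither were 55 to 81 nt long. The density of CDS summits was 5.48 and 4.82 per kb in replicates 1 and 2. The mean of 5.15 ± 0.468 (SD, n = 2) was rank 3 among 79 mRNAs with a CDS from 9000 to 12000 nt, whose median was 0.173. Of these 79 mRNAs, only 40 held peaks in both replicates. Among mRNAs of any length with CDS summits in both replicates, WDFY3 stood at percentile 91.6 of density. Of the WDFY3 peaks, 82.5% in replicate 1 and 89.5% in replicate 2 overlapped a peak of the other list. The q was at most 0.05 for 17 WDFY3 peaks in replicate 1 and for 9 in replicate 2. The highest fold enrichment was 6.08 in exon 8 in replicate 1 (q = 3.73e-05), where replicate 2 had no peak, and 5.27 in exon 54 in replicate 2 (q = 0.0047), where the replicate 1 peak had a fold of 2.66 (q = 1). At exons 1, 16 and 19 the antisense genes WDFY3-AS2 and WDFY3-AS1 share the summit of 5 peaks, and the lists carry no strand to tell them apart.

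ATG4A encodes a protease that trims ATG8 proteins before their conjugation and releases them from the membrane afterwards, and its mRNA had the densest CDS summits of all members. The gene (ENSG00000101844.18, chrX:108091668-108154671, plus strand) has 13 exons and a CDS of only 1197 nt. Replicate 1 held 11 exonic peaks, of which 10 had summits in the CDS, and replicate 2 held 7, of which 5 did. That came to 8.35 and 4.18 CDS summits per kb, or 6.27 ± 2.95 (SD, n = 2), so the replicates differed widely in this density. Its mean was rank 24 among 3610 mRNAs with a CDS from 1000 to 1400 nt, whose median was 0. Of these 3610 mRNAs, only 877 held peaks in both replicates. Among mRNAs of any length with CDS summits in both replicates, ATG4A stood at percentile 97.5 of density. In replicate 1, summits fell in exons 2 to 10, 12 and 13. In replicate 2 they fell in exons 2, 3, 7, 8, 12 and 13, each of which was also hit in replicate 1. The site in exon 12 had the highest mean fold of all pairs of overlapping member peaks. Its fold was 6.10 in replicate 1 (q = 0.000262) and 5.11 in replicate 2 (q = 0.00267), with the summit at the same base, chrX:108153020, 138 nt before the end of the CDS. The highest fold of any member peak, 6.43 in exon 5 of ATG4A in replicate 1 (q = 0.000633), had no overlapping peak in replicate 2, and neither had the peak in exon 4, with a fold of 5.72 (q = 0.000688).

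The other ATG4 proteases, which act on the same family of substrates, had few or no peaks. ATG4B held 0 and 1 exonic peaks in replicates 1 and 2, the latter in exon 4 with a fold of 3.07 (q = 0.939). ATG4C also held 0 and 1, in exon 4 with a fold of 2.25 (q = 1), and ATG4D held none. The CDS of these 3 mRNAs is 1182, 1377 and 1425 nt long, against 1197 nt for ATG4A.

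**Figure D2:**
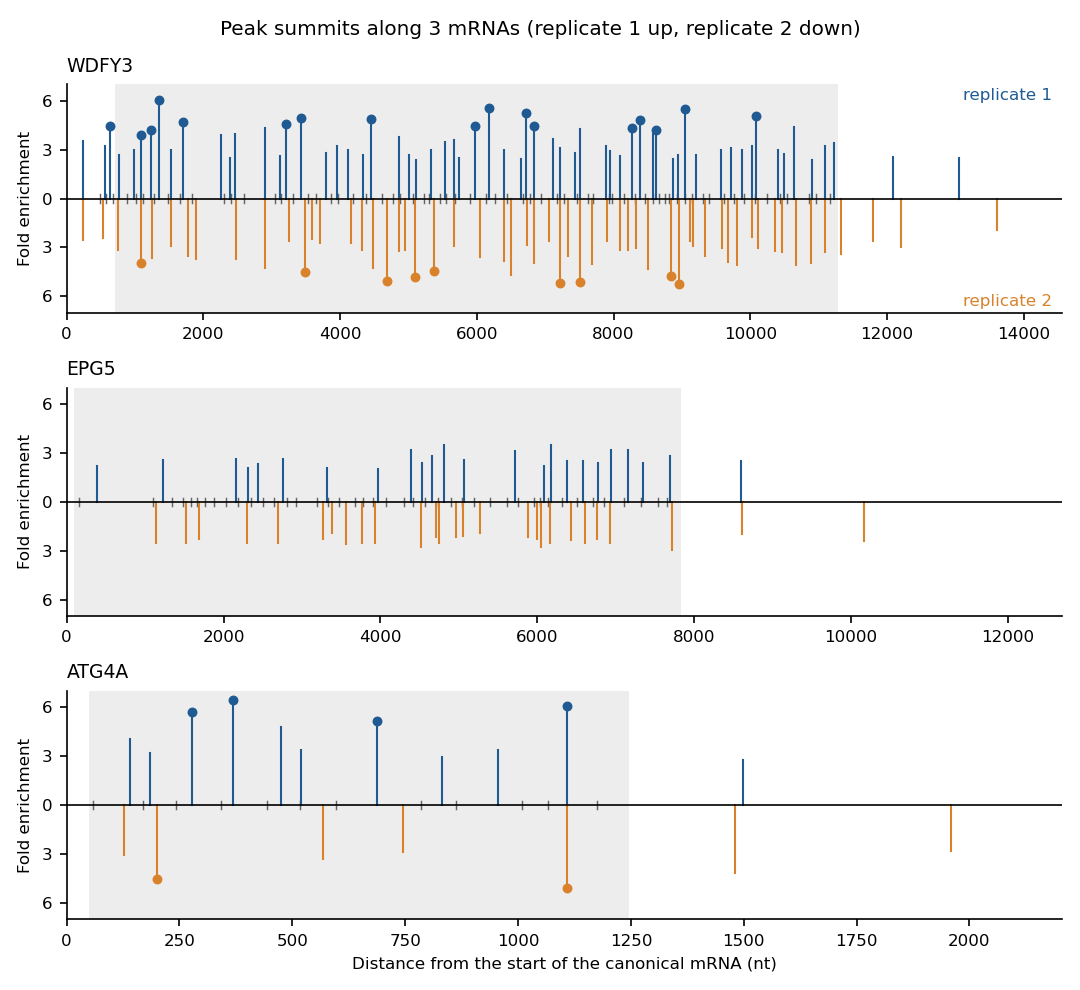
Fold enrichment of each peak (y axis, replicate 1 upward and replicate 2 downward) at its summit's distance from the start of the canonical mRNA in nt (x axis) for WDFY3, EPG5 and ATG4A. Grey shading marks the CDS, short ticks mark exon junctions and round heads mark a q of at most 0.05, which 17 and 9 WDFY3 peaks, 4 and 2 ATG4A peaks and no EPG5 peak reached.

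Overlapping pairs of member peaks, at least 1 bp in common, numbered 117 in 15 members, with 51 in WDFY3, 17 in EPG5 and 49 in the others. In 115 pairs both summits lay in the same exon, in 103 both lay in the CDS, and the median distance between the summits was 27 bp. The summits were identical in 5 pairs, which lay in exon 12 of ATG4A, exon 9 of WDFY3, exons 7 and 13 of AMBRA1 and exon 21 of RB1CC1. A q of at most 0.05 in both replicates was reached at 3 sites. Besides exon 12 of ATG4A these were exon 17 of WDFY3, with folds of 4.96 and 4.52 (q = 0.0105 and 0.0294), and exon 6 of WDFY3, with folds of 3.91 and 3.93 (q = 0.0211 and 0.0294). Sequences are shown for these 3 sites and for pairs of high mean fold, taken in order with no more than 2 per member so that WDFY3 does not fill the list, to give the coding sequence around the replicate 1 summit. By mean fold these pairs rank 1, 2, 3, 9, 17, 19, 24 and 33 of the 117, and the pairs between them left out are in WDFY3, apart from rank 6 in RB1CC1 and ranks 22 and 32 in ATG4A. Each is 101 nt of the canonical mRNA in GRCh38, 5′ to 3′, centred on the replicate 1 summit and written as DNA. Capitals mark the bases inside both peaks of the pair itself, whatever other peaks lie there. Where a window crosses an exon junction, its genome position is given in 2 parts. The genes are on the minus strand except ATG4A.
ATG4A exons 11 and 12, chrX:108151850-108151858 and chrX:108152979-108153070: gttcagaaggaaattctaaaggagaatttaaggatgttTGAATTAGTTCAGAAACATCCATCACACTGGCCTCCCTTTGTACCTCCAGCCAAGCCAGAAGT
ATG4A exon 8, chrX:108137844-108137944: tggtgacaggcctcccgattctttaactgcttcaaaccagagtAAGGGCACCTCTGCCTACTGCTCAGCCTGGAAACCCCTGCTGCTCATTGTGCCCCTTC
WDFY3 exon 17, chr4:84801701-84801801: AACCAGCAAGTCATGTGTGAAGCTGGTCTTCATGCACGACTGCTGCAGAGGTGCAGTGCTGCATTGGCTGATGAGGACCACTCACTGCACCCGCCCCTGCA
WDFY3 exons 41 and 42, chr4:84737184-84737194 and chr4:84736238-84736327: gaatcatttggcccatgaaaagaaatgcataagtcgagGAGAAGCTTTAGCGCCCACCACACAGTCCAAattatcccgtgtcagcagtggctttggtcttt
WDFY3 exons 6 and 7, chr4:84841154-84841235 and chr4:84837072-84837090: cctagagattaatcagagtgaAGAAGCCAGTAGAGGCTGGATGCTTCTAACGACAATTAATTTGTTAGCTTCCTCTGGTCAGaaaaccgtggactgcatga
ATG9A exons 9 and 10, chr2:219223869-219223952 and chr2:219223748-219223764: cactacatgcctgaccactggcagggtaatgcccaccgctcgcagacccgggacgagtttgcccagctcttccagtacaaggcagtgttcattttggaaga
ATG9A exons 12 and 13, chr2:219222272-219222359 and chr2:219222155-219222167: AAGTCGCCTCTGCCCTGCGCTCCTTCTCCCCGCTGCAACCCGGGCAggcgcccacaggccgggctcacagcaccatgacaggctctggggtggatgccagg
WIPI1 exons 1 and 2, chr17:68457342-68457413 and chr17:68452964-68452992: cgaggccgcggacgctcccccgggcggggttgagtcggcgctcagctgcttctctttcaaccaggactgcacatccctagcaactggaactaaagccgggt

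In the ATG9A window at exon 9 and in the WIPI1 window no base is capital. The peaks of each pair overlapped by only 33 and 19 bp, away from the replicate 1 summit. At ATG9A the same replicate 1 peak also overlapped another replicate 2 peak, chr2:219223917-219223974, by 58 bp. Part of the ATG9A window lies inside both of these. The GC content of these windows ran from 41.6% in exon 12 of ATG4A to 70.3% in exon 12 of ATG9A. GGAC, the core that the study names for m6A sites, occurred in 4 of the 8 windows. TGGAC occurred in 1, the WDFY3 window of exons 6 and 7, where it lay in the exon 7 bases, outside the exon 6 pair. The replicate 1 peak of exon 7 (chr4:84836939-84837113) covers it, and the replicate 2 peak there (chr4:84836966-84837081) covers part of it. The exon 12 window of ATG4A held neither. The pair of rank 6 lay in exon 23 of RB1CC1, with folds of 4.32 and 4.22 (q = 0.0663 and 0.114), above both ATG9A pairs, the exon 8 pair of ATG4A and the WIPI1 pair in mean fold, and its sequence is not shown.

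Of the ULK complex, 3 of 5 members held peaks in both replicates and 2 in neither, with 21 and 25 peaks in all. RB1CC1 encodes FIP200, the scaffold of the complex, and held 13 and 11 exonic peaks with highest folds of 4.33 and 4.22. Its peaks that overlapped between replicates lay mostly in short exons near the 3′ end of the CDS, in exons 19, 20, 21 and 23. Exon 19 held folds of 2.41 (q = 1) and 4.18 (q = 0.0294). ULK1, the kinase itself, held 6 and 7 peaks with highest folds of 3.91 and 3.08, and overlapping pairs lay only in exon 6 and in exon 28, at 143 and 133 nt past the CDS. ATG13, which links the kinase to the scaffold, held 2 and 7 peaks. Its exon 11 site had folds of 4.32 (q = 0.0225) and 2.62 (q = 1). ULK2, the paralog of ULK1 with a CDS of 3111 nt against 3153 nt, and ATG101, a partner of ATG13, held none in either list.

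Of the class III PI3-kinase subunits and regulators, UVRAG, AMBRA1 and ATG14 held peaks in both replicates, and BECN1, the shared core subunit, held none. AMBRA1, which regulates Beclin 1 and serves as a substrate receptor of a ubiquitin ligase, held 13 and 10 peaks, of which 9 and 8 overlapped a peak of the other list. Summits in the CDS numbered 12 and 9, at 2.69 ± 0.544 per kb (SD, n = 2). The highest fold of AMBRA1 was 4.49 in exon 16 in replicate 2 (q = 0.012), where replicate 1 had 2.45 (q = 1). UVRAG, which replaces ATG14 in the endosomal form of the complex, held 11 peaks in each replicate and 4.05 ± 1.01 CDS summits per kb (SD, n = 2), the third highest density of the members. Only 5 of its peaks in each list overlapped one of the other, and none reached a q of 0.05. ATG14, which directs the complex to autophagosome formation, held 5 and 3 peaks with highest folds of 3.18 and 3.33 and 1 overlapping pair, in exon 6.

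Of the membrane proteins, ATG9A, the lipid scramblase of the vesicles that seed the membrane, held 6 and 8 peaks, all with summits in the CDS. All 6 peaks of replicate 1 and 7 of the 8 of replicate 2 overlapped a peak of the other list. The highest folds were 4.65 in exon 12 (q = 0.0724) and 4.88 in exon 10 (q = 0.0249). From exon 11 onward, 2 of these peaks in replicate 1 and 3 in replicate 2 also lay on exons of the overlapping gene ENSG00000284820, so their gene of origin is uncertain. TMEM41B, a scramblase of the endoplasmic reticulum, held 3 and 2 peaks, and pairs in exons 5 and 6 overlapped, with folds of 3.10 and 3.68 in exon 5. VMP1, which acts in the same membrane, held 1 peak in replicate 1, in exon 7 with a fold of 3.40 (q = 1), and 0 in replicate 2.

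Of the PI3P effectors, 1 of 3 held peaks in both replicates. WIPI1, which binds PI3P on the growing membrane, held 5 peaks in each replicate, 4 of which overlapped, with 2.98 CDS summits per kb in both. Its highest folds were 4.77 in exon 5 in replicate 1 (q = 0.0211), without a counterpart in replicate 2, and 4.11 in exon 7 in replicate 2 (q = 0.218), without one in replicate 1. The pair in exon 13 also lay on an exon of ARSG. WIPI2, which brings ATG16L1 to the membrane, held 1 peak in replicate 1, in exon 10 with a fold of 2.95 (q = 1), and 0 in replicate 2. WDR45, also known as WIPI4, held none. The coding sequences of these mRNAs are 1341, 1365 and 1083 nt long.

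**Figure D3:**
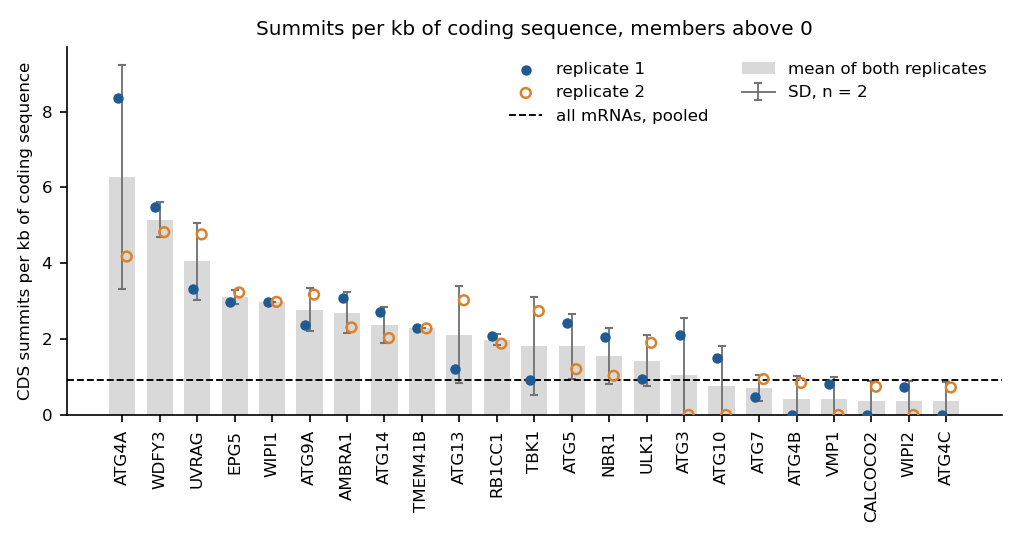
Summits per kb of coding sequence (y axis) for the members with a value above 0 (x axis), with a bar for the mean of both replicates, an error bar for the SD (n = 2) and points for the replicates; the dashed line is the pooled density of all mRNAs, 0.924. The line includes mRNAs without any peak, whereas members at 0 are left out. For mRNAs with exonic peaks in both replicates the pooled density is 2.32. ATG4A (6.27) and WDFY3 (5.15) have the highest means, and the values of ATG4A are the farthest apart.

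Of the remaining conjugation enzymes, none had a peak with a q of at most 0.05. ATG7, the E1-like enzyme that activates ATG8 proteins and ATG12, held 2 and 4 peaks. The only overlapping ATG7 pair, with folds of 2.81 and 3.16, lay in the 3′ UTR, where VGLL4 runs on the other strand, so that the 3′ UTR peaks cannot be assigned to one of these genes. ATG5, which is joined to ATG12 in the E3-like complex, held 3 and 2 peaks, none of them overlapping, with highest folds of 3.07 and 3.0. ATG12 held 1 peak in each list, an overlapping pair near the end of a 3′ UTR of 3604 nt with folds of 2.39 and 2.34. ATG10, the E2-like enzyme for ATG12, held 2 and 1 peaks, none overlapping, with highest folds of 2.65 and 1.94. ATG3, the E2-like enzyme for ATG8 proteins, held 2 peaks in replicate 1, with folds of 2.52 and 3.09, and 0 in replicate 2. ATG16L1, which places the E3-like complex on the membrane, held none.

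Of the cargo receptors and adaptors other than WDFY3, NBR1 and TBK1 held peaks in both replicates. NBR1, an aggregate receptor, held 6 and 3 peaks with highest folds of 2.92 and 3.42, and its overlapping pairs lay in exons 12 and 20. TBK1, the kinase that phosphorylates several receptors, held 3 and 6 peaks with highest folds of 3.10 and 3.18, and no pair of exonic TBK1 peaks overlapped. OPTN, a mitophagy receptor, held 1 peak in replicate 1, in its 5′ UTR with a fold of 2.52 (q = 1), and 0 in replicate 2. CALCOCO2, also called NDP52, held 0 and 2 peaks, in the last exon with folds of 2.88 and 2.64. SQSTM1, which encodes p62, held 0 and 1, and that peak, with a fold of 3.25 (q = 1), lay outside its canonical transcript on an exon shared with MGAT4B. TAX1BP1 held none.

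EPG5, the tether between autophagosomes and lysosomes (ENSG00000152223.16, chr18:45800581-45967329, minus strand, CDS of 7740 nt in 44 exons), held 24 and 27 peaks. Its CDS density of 2.97 and 3.23 per kb, or 3.10 ± 0.183 (SD, n = 2), was rank 65 among 316 mRNAs with a CDS from 6000 to 9000 nt, whose median was 0.951. Of these 316 mRNAs, 194 held peaks in both replicates. Among mRNAs of any length with CDS summits in both replicates, EPG5 stood at percentile 66.3 of density. Summits lay in 23 and 25 of the 44 exons and in 16 exons in both replicates. In contrast to WDFY3, its folds were low throughout. The median fold was 2.52 and 2.51 and the highest 3.49 and 2.93, and no peak reached a q of 0.05. Of its peaks, 70.8% in replicate 1 and 63.0% in replicate 2 overlapped a peak of the other list.

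Taking all members, 85.8% ± 0.734 of summits on canonical mRNAs lay in the CDS (SD, n = 2), which makes up 51.3% of the length of these mRNAs. Over all mRNAs 77.7% ± 1.02 did (SD, n = 2), on 47.3% of the length. The 3′ UTR held 10.0% ± 1.10 of member summits on 43.5% of the length, compared with 18.6% ± 0.935 on 47.3% over all mRNAs (SD, n = 2 each). The 5′ UTR held 4.14% ± 1.83 for members and 3.72% ± 0.0873 for all mRNAs (SD, n = 2 each). Peaks were placed on the genome, where short and long exons can hold the same number of summits. These shares and the densities per kb therefore count summits and do not measure the amount of binding. WDFY3 and EPG5 weighed on the CDS share. Without them it was 80.5% ± 3.01 (SD, n = 2), within 1 SD of the value for all mRNAs. Within 200 nt of the end of the CDS lay 5.43% and 6.25% of member summits, and 8.58% and 8.35% of all. The last exon held 12.0% and 13.6% of member summits and 25.0% and 23.1% of all. The study reports IGF2BP3 binding sites as strongly enriched around the stop codon and in the 3′ UTR. Its profiles were not repeated here. Per length, the members had 2.12 ± 0.0486 CDS summits per kb and all mRNAs 0.924 ± 0.0117 (SD, n = 2 each). The latter include many mRNAs with no peak at all. Among mRNAs with exonic peaks in both replicates the densities lay closer, at 2.99 ± 0.0561 for 18 members and 2.32 ± 0.0216 for 5523 mRNAs (SD, n = 2 each). WDFY3, at 5.15, and EPG5, at 3.10, are among these 18, and the pooled density of the 18 without them is not given. The higher pooled value of the 18 is therefore not shown for the members beyond these 2. The median over single mRNAs was 2.20 for the 18 members and 1.98 for the 5523 mRNAs. Without WDFY3 and EPG5 the members had 1.40 per kb in each replicate, lower than with them by a factor above 1.5.

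**Figure D4:**
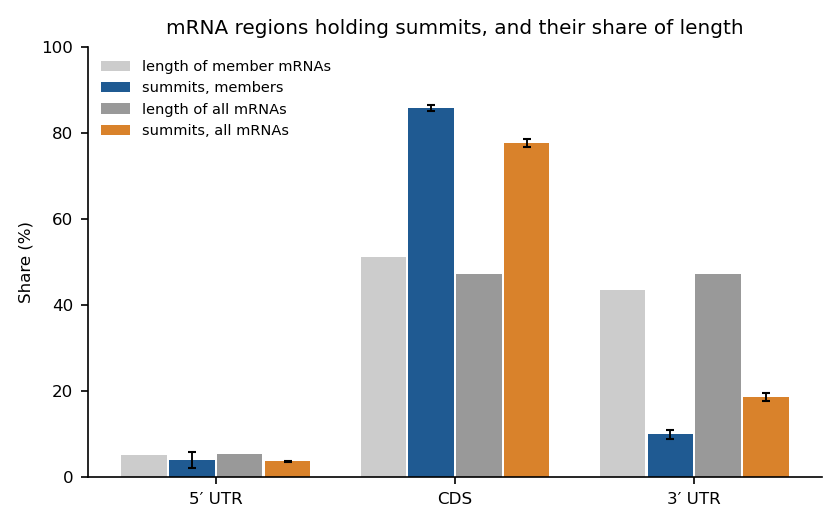
Share in % (y axis) of summits and of mRNA length in the 5′ UTR, CDS and 3′ UTR (x axis), for the 33 members and for all mRNAs; error bars are the SD of 2 replicates. The CDS holds 85.8% of member summits on 51.3% of member length, and 77.7% of all summits on 47.3% of all length.

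The heights of the member peaks lay close to those of all exonic peaks. The median fold was 2.98 ± 0.0464 for member peaks and 2.93 ± 0.000926 for all exonic peaks (SD, n = 2 each), and the member folds ran from 2.02 to 6.43 in replicate 1 and from 1.82 to 5.27 in replicate 2. The q was at most 0.05 for 23 of 184 and 14 of 177 member peaks, or 12.5% and 7.91%, compared with 10.1% and 7.70% of all exonic peaks, and a q of 1 was given to 62.5% and 65.5%. Of the member peaks 63.0% in replicate 1 and 65.5% in replicate 2 overlapped a peak of the other list, compared with 60.8% and 64.6% of all exonic peaks. WDFY3 again weighed on this share, which was 48.5% and 51.6% without WDFY3 and EPG5. Of the member peaks with a q of at most 0.05, 17 of 23 in replicate 1 and 13 of 14 in replicate 2 overlapped some peak of the other list. The share over all exonic peaks at that limit is not given here, so these counts do not set the members apart.

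Peak height varied between the replicates at the same sites. Across the 117 overlapping pairs, log2 fold in replicate 1 and replicate 2 had a Pearson's r of 0.19 and a Spearman's rho of 0.147. Of the 18 members with peaks in both lists, the peaks of highest fold overlapped in only 2. Neither the correlation nor this count is given over all genes, so both may hold for the lists in general. The −log10 p of the 184 and 177 member peaks took 66 and 73 distinct values, and 78.8% and 70.1% of the peaks had the same value as another member peak.

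**Figure D5:**
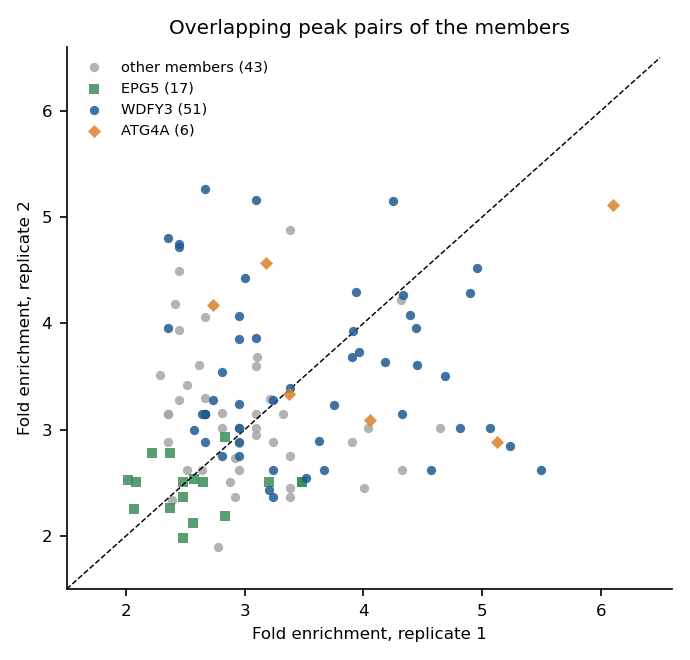
Fold enrichment in replicate 1 (x axis) and replicate 2 (y axis) of the 117 overlapping peak pairs of the members, with the dashed line at equal folds. The exon 12 site of ATG4A lies at the upper right with 6.10 and 5.11, the EPG5 pairs lie at low folds, with means between 2.16 and 3.0, and the WDFY3 pairs spread to both sides of the line.

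Short sequences near the summits were counted on the transcript strand, within 50 nt on either side of each summit, in 184 and 176 member windows. TGGAC, the DNA form of the sequence that the study names, was present in 13.6% and 11.4% of member windows and in 12.8% and 12.9% of all mRNA windows. GGAC, which TGGAC contains, was present in 33.2% and 35.2% of member windows and 31.9% and 32.0% of all. DRACH, the general consensus of m6A sites, was present in 89.7% and 89.8% of member windows and 87.1% and 87.5% of all. CACTC was found in 8.15% and 6.82% of member windows against 8.66% and 8.24% of all, ACACA in 8.15% and 11.4% against 11.2% and 10.8%, and CATCA in 13.6% and 11.4% against 15.8% and 15.5%. For TGGAC and ACACA the means of member windows and of all windows differed by less than the SD of the member values, which was 1.57 and 2.27 percentage points (n = 2). Member shares lay above the overall shares for GGAC and DRACH and below them for CACTC and CATCA in both replicates, on as few as 12 member windows with the sequence. A match is a stretch of letters and not a measured site.

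Autophagy genes outside the 33 were counted in 3 lists. Over all protein-coding genes, 28% held peaks in both replicates and 63.8% in neither, and 10.3% held a peak with a q of at most 0.05. The same counts for the 33 members were 18, 7 and 7. Of 29 other autophagy genes, 19 held peaks in both replicates and 6 in neither, at 1.76 ± 0.0578 CDS summits per kb (SD, n = 2), and 4 held a peak with a q of at most 0.05. RUBCN, an inhibitor that binds the UVRAG form of the PI3-kinase complex, held 17 and 16 peaks with highest folds of 4.21 and 3.96. FYCO1, which links autophagosomes to kinesin, held 19 peaks in each list with highest folds of 5.81 and 5.35, and ATG2B, a lipid transfer protein, held 23 and 30. Of the 7 genes of the ATG8 family, on which the ATG4 proteases act, 2 held peaks in both replicates. MAP1LC3B held 3 and 4 with highest folds of 3.10 and 3.98, GABARAPL1 held 1 and 3, and the other 5 held none. Their density was 0.761 ± 0.538 CDS summits per kb (SD, n = 2), and none had a peak with a q of at most 0.05. Of 12 upstream regulators, 7 held peaks in both and 5 in neither, 3 had a peak with a q of at most 0.05, and the density was 3.37 ± 0.159 CDS summits per kb (SD, n = 2), above that of the members. They included MTOR, the kinase that inhibits the ULK complex, with 38 and 37 peaks, and TSC1 and TSC2, which restrain MTOR, with 23 and 24 and with 25 and 20 peaks, while the autophagy transcription factor TFEB held none.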

How the data were processed

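Peak lists of 2 IGF2BP3 RIP replicates were used. The study's methods give Tophat2 for mapping to hg38 and MACS2 for calling peaks, each with defaults, whereas the labels list fastp, HISAT2 and MACS2. Each list was called on its own replicate. The library used as control and the versions are not given in the sources used here. The deposited fold enrichment is the ratio of RIP signal to local background at the summit, computed by the authors. The deposited −log10 p and −log10 q values are those of the caller, and the deposited score is the whole part of 10 times the −log10 p. The lowest −log10 p was 2.0003 and 2.00226. As the lists carry no read counts, counting error could not be given.

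Summits were placed on exons of GENCODE 44 without regard to strand, and regions follow the canonical coding transcript (19688 mRNAs). No peak ran past a chromosome end, and 13 and 12 peaks on unplaced scaffolds were left out. Peaks sharing at least 1 bp were called overlapping. Assignment and overlap were tested on simulated peaks. The members, lists and motifs were chosen with earlier results of these data known. Values were given for the 5 members with the most peaks, the highest CDS density and the highest fold, all with a q of at most 0.05 and all without a peak in a replicate, and for 8 sites taken in order of mean fold with at most 2 per member, plus those with a q of at most 0.05 in both replicates. Paralogs, neighbours and other genes were named by role. Sequences are from GENCODE transcripts. Python 3.11.15 with scipy 1.17.1 and matplotlib was used. Alternatives are given in the closing section.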

Additional observations from a re-analysis of the deposited data

How the results depend on the processing

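Of the alternatives, those without WDFY3 were added after seeing the data. For the 6 values (peaks per list, members with peaks in both replicates, percent overlapping, percent in CDS, CDS summits per kb, median fold), a q of at most 0.05 gave 18.5, 2, 17.2%, 97.8%, 0.247 and 4.80, and a fold of at least 4 gave 28.5, 5, 25.2%, 92.8%, 0.364 and 4.52, both by leaving fewer peaks. Summits on exons of no other gene gave 87.5% in CDS and 2.06 per kb. The percent overlapping was 42.7 when 50% of both peaks had to overlap and 43.2 for summits within 50 bp. Without WDFY3 the values that moved were 53.5% overlapping, 83.3% in CDS, 1.61 per kb and a median fold of 2.90, and without WDFY3 and EPG5 they were 95 peaks, 50.03% overlapping, 80.5% in CDS and 1.40 per kb. Canonical exons alone moved none of the 6 values beyond 1 SD or, for counts, 1.5 times, nor did counting peaks that merely touch an exon for the 4 values run, which leave out the CDS share and density. Single replicates gave 177 to 184 peaks, 22 members with a peak, 63.0% to 65.5% overlapping, 85.3% to 86.4% in CDS, 2.09 to 2.16 per kb and median folds of 2.95 to 3.02, which is no check of stability, since with 2 values each lies within 1 SD of their mean. No paired analysis was possible because only 1 group, the RIP replicates, was used. The lists hold only called peaks at unknown depth, so a member without a peak cannot be told apart from one too thinly covered.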
